A study of Mus musculus with 18 samples.

Results

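A set of 10 genes of the spleen's red pulp macrophages and of complement C1q were followed tumour by tumour in 18 mouse lymphomas. They are C1qa, C1qb, C1qc, Hmox1, Slc40a1, Spic, Vcam1, Csf1r, Axl and Mertk, 10 of the 19938 genes measured. They were chosen by name for their known roles in these cells, with earlier results of these data known. Every mouse, on a C57BL/6 background, carried Eμ-Myc, a transgene that expresses Myc in B lineage cells from the Eμ enhancer and gives rise to B cell lymphoma. The 9 WT tumours came from mice with intact Prdm11 and the 9 KO tumours from Prdm11 knockout mice, with 1 mouse and 1 Affymetrix array per tumour. All were end-stage splenic tumours that were frozen and homogenised, and no sorting of cells is stated. The labels used here give no sex, age or array batch.

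Red pulp macrophages engulf old red cells and return their iron to the blood. The transcription factor SPI-C is needed for their development, haem oxygenase 1 (Hmox1) opens the haem ring, and ferroportin (Slc40a1) exports the freed iron. The 3 C1q chains assemble into the recognition part of the classical complement pathway, which macrophages secrete. CSF1R is the receptor on which most macrophages depend for survival, AXL and MERTK are receptor kinases for the uptake of dying cells, and VCAM-1 is an adhesion molecule that red pulp macrophages carry in abundance. In these whole tumours, fewer cells of a type and less RNA per cell cannot be told apart.

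The C1q genes are neighbours on mouse chromosome 4, in the order C1qb, C1qc and C1qa with 0 annotated genes between them, while Spic lies on chromosome 10. RefSeq promoter sequence on the GRCm38.p6 build was matched by symbol for 5 of the 10 genes, namely C1qb, C1qc, Spic, Axl and Mertk. The 250 bases before the start were searched on both strands for GGAAGT, a core recognised by many ETS family factors, the family to which SPI-C belongs. The motif was chosen with the members' results known, and it was the 1 motif searched. It was present in 3 of the 5 windows, against 6485 of 32851 promoters of the same length (19.7%). The C1qb, C1qc and Spic windows are shown because they hold the motif. All are minus strand genes, printed 5′ to 3′ as read toward the gene, at chr4:136886201-136886450, chr4:136892915-136893164 and chr10:88683024-88683273. Capitals mark the match, which reads ACTTCC because it lies on the strand opposite the gene.

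C1qb: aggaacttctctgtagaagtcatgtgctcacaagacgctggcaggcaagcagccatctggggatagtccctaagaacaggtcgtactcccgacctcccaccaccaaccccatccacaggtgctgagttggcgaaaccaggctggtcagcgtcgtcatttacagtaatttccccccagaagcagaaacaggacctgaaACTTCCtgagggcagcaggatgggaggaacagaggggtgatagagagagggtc
C1qc: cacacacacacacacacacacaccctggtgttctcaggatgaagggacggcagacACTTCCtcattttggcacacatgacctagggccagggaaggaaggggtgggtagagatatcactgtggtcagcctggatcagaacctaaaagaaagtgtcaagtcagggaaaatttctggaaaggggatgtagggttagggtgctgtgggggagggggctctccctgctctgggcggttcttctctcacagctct
Spic: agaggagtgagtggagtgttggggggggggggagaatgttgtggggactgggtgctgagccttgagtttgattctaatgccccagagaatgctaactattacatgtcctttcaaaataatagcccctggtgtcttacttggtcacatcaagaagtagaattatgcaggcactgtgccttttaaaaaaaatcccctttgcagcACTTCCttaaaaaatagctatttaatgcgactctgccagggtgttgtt

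Counted back from the start, the match spans positions -53 to -48 in C1qb, -195 to -190 in C1qc and -48 to -43 in Spic. A match describes letters and not binding, and the arrays carry no measurement of binding. The windows of Axl and Mertk held 0 matches.

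Levels below are log2 RMA intensities, differences are KO minus WT on that scale, and an adjusted p below 0.05 over all 19938 genes counted as a call. Array medians lay between 5.14 and 5.38. WT tumour 3 gave the array least like the rest (median r 0.924, all others 0.957 or more), and results that turn on it are named. The knocked-out gene itself, Prdm11, overlapped between genotypes, from 4.84 to 5.66 in WT and from 4.87 to 5.49 in KO tumours (difference -0.12, SE 0.12, limma adjusted p = 0.868). The position of its probe set with respect to the deletion is not known here, so this level checks no label.

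Compared between genotypes, 9 of the 10 macrophage genes had a lower mean in KO tumours, with C1qc, Spic, Hmox1 and C1qb lower by the most. None passed the test: 0 of 10 were called by limma, where 1 of 19938 genes was called in all (0.00502%). At an unadjusted p below 0.05, 2 of the 10 were lower in KO tumours (C1qc and Hmox1), against 3.87% of all genes, and 0 were higher, against 2.83% of all genes. The median difference of the 10 was -0.21, against -0.03 over all genes, of which 59.2% were lower. The genotypes overlapped for every member, and so 0 of 10 had each KO tumour below each WT tumour, as 0.01% of all genes did.

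Among the C1q chains, C1qc (probe set 10517513) gave the largest difference. Its lowest, median and highest levels were 8.08, 8.53 and 9.48 in WT tumours and 7.36, 8.23 and 8.64 in KO tumours. Of the KO tumours 3 lay below every WT tumour, and of the WT tumours 4 lay above every KO tumour, with WT tumour 1 at the top and KO tumour 8 at the bottom. The means were 8.62 ± 0.46 and 8.14 ± 0.36 (SD, n = 9 each), which put KO tumours lower by -0.49 (SE 0.18), or 1.40-fold, with an unadjusted p of 0.0145 and a limma adjusted p of 0.699.

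C1qb (10517508) ran from 6.04 through a median of 6.45 to 7.13 in WT tumours and from 5.78 through 6.27 to 6.70 in KO tumours. Here 4 WT tumours lay above every KO tumour and 2 KO tumours below every WT tumour. The means were 6.61 ± 0.42 and 6.28 ± 0.30 (SD, n = 9 each), a difference of -0.33 (SE 0.16, limma adjusted p = 0.755). C1qa (10517517), the third chain, was not lower: it ran from 5.81 through 6.32 to 6.87 in WT tumours and from 6.16 through 6.23 to 6.95 in KO tumours. Its groups overlapped, WT tumour 3 was the lowest of the 18 and KO tumour 9 the highest. The means were 6.36 ± 0.30 and 6.38 ± 0.27 (SD, n = 9 each), a difference of 0.02 (SE 0.13, limma adjusted p = 0.988). Left-out tumours moved it, to -0.05 without WT tumour 3 and to -0.05 without KO tumour 9. Whether the chains differ from each other in their response to genotype was not tested.

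**Figure D1:**
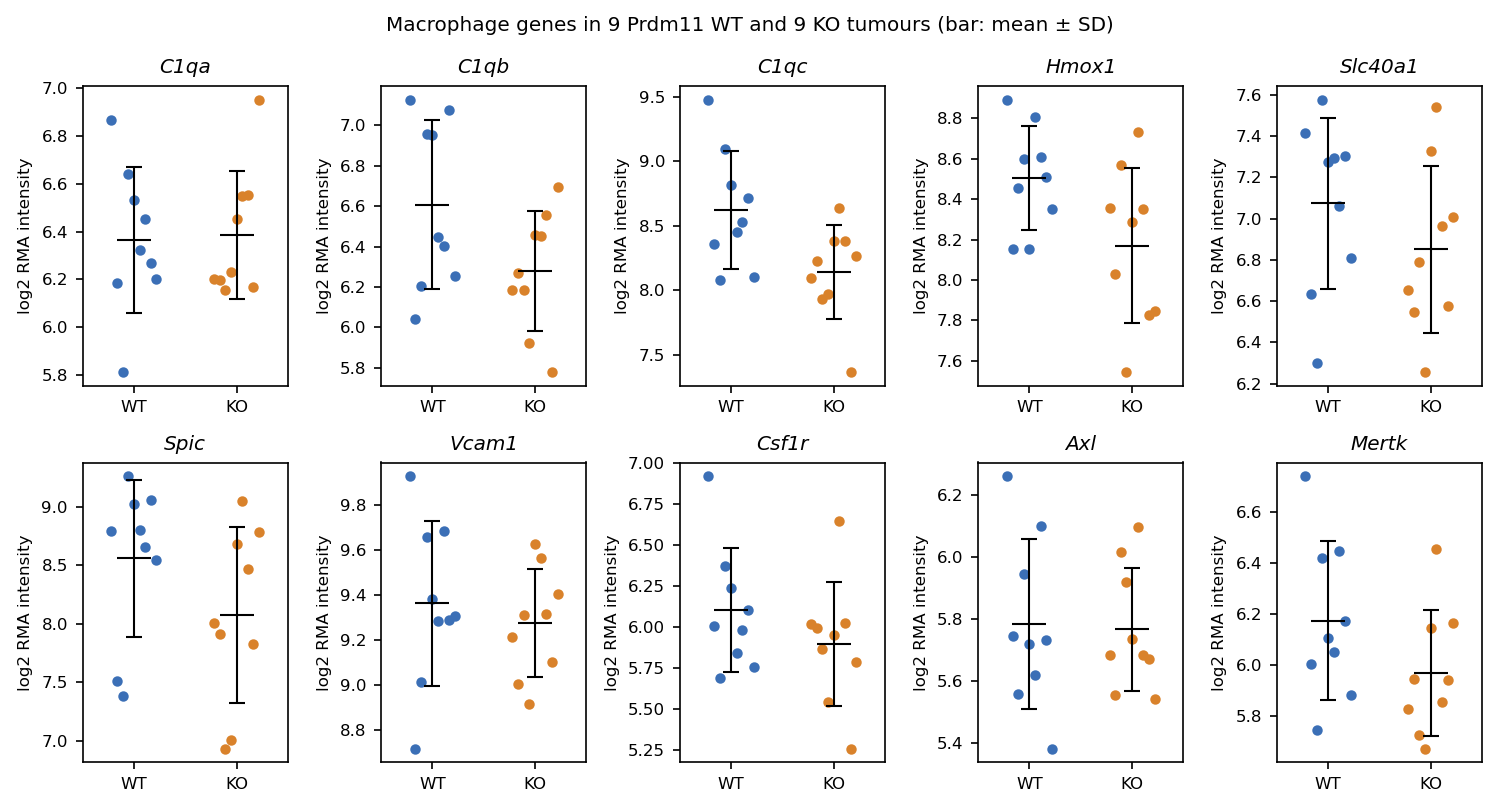
Log2 RMA intensity (vertical axis) of each of the 10 macrophage genes in 9 WT and 9 KO tumours, with a point per tumour and a bar for the mean ± SD. The groups overlap in every panel, and C1qc shows 4 WT tumours above every KO tumour.

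The genes of haem and iron handling also had lower means in KO tumours, without a call. Hmox1 (10572897) ran from 8.15 through a median of 8.51 to 8.89 in WT tumours and from 7.54 through 8.29 to 8.73 in KO tumours. Of the KO tumours 4 lay below every WT tumour and 7 below the WT median, while KO tumour 6 reached 8.73. The means were 8.50 ± 0.26 and 8.17 ± 0.39 (SD, n = 9 each), a difference of -0.33 (SE 0.15) with an unadjusted p of 0.0352 and a limma adjusted p of 0.719. Slc40a1 (10354374) ran from 6.30 through 7.27 to 7.58 in WT tumours and from 6.26 through 6.79 to 7.54 in KO tumours. Only WT tumour 4 lay above every KO tumour, although 7 of 9 KO tumours lay below the WT median. The means were 7.07 ± 0.41 and 6.85 ± 0.40 (SD, n = 9 each), a difference of -0.22 (SE 0.18, limma adjusted p = 0.835). This was -0.32 without WT tumour 3 and -0.15 without KO tumour 4.

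Spic (10371662), the lineage factor, varied most of the 10, by 2.33 between its lowest and highest tumour. It ran from 7.38 through a median of 8.79 to 9.26 in WT tumours and from 6.93 through 8.01 to 9.04 in KO tumours. WT tumour 3 was the lowest WT tumour, and 8 of 9 KO tumours lay below the WT median, with KO tumour 6 the exception. The means were 8.56 ± 0.67 and 8.07 ± 0.75 (SD, n = 9 each), so that the difference of -0.48 was smaller than the spread within either group (SE 0.30, limma adjusted p = 0.796). It was -0.63 without WT tumour 3 and -0.34 without KO tumour 3.

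Vcam1 (10501608) ran from 8.72 through a median of 9.31 to 9.93 in WT tumours and from 8.92 through 9.31 to 9.63 in KO tumours. The medians were equal to the second decimal, and the KO tumours lay inside the WT range. The means were 9.36 ± 0.36 and 9.27 ± 0.24 (SD, n = 9 each), a difference of -0.09 (SE 0.14, limma adjusted p = 0.921), which ran from -0.17 without WT tumour 2 to -0.02 without WT tumour 1.

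For the receptors no difference was larger in size than that of Mertk. Csf1r (10456071) ran from 5.69 through a median of 6.01 to 6.92 in WT tumours and from 5.26 through 5.95 to 6.64 in KO tumours. WT tumour 1 was the highest and 2 KO tumours lay below every WT tumour, KO tumour 8 lowest of all. The means were 6.10 ± 0.38 and 5.90 ± 0.38 (SD, n = 9 each), a difference of -0.20 (SE 0.17, limma adjusted p = 0.840). This was -0.10 without WT tumour 1, -0.12 without KO tumour 8 and -0.30 without KO tumour 6. Mertk (10475890) ran from 5.74 through 6.11 to 6.74 in WT tumours and from 5.67 through 5.94 to 6.46 in KO tumours. It too was highest in WT tumour 1 among WT tumours and in KO tumour 6 among KO tumours. The means were 6.17 ± 0.31 and 5.97 ± 0.25 (SD, n = 9 each), a difference of -0.21 (SE 0.13, limma adjusted p = 0.796). This was -0.13 without WT tumour 1, -0.26 without WT tumour 3 and -0.27 without KO tumour 6. Axl (10561104) ran from 5.38 through 5.73 to 6.26 in WT tumours and from 5.54 through 5.68 to 6.10 in KO tumours. The KO tumours lay inside the WT range, and the difference was -0.02 (SE 0.11, limma adjusted p = 0.988) between means of 5.78 ± 0.27 and 5.77 ± 0.20 (SD, n = 9 each).

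**Figure D2:**
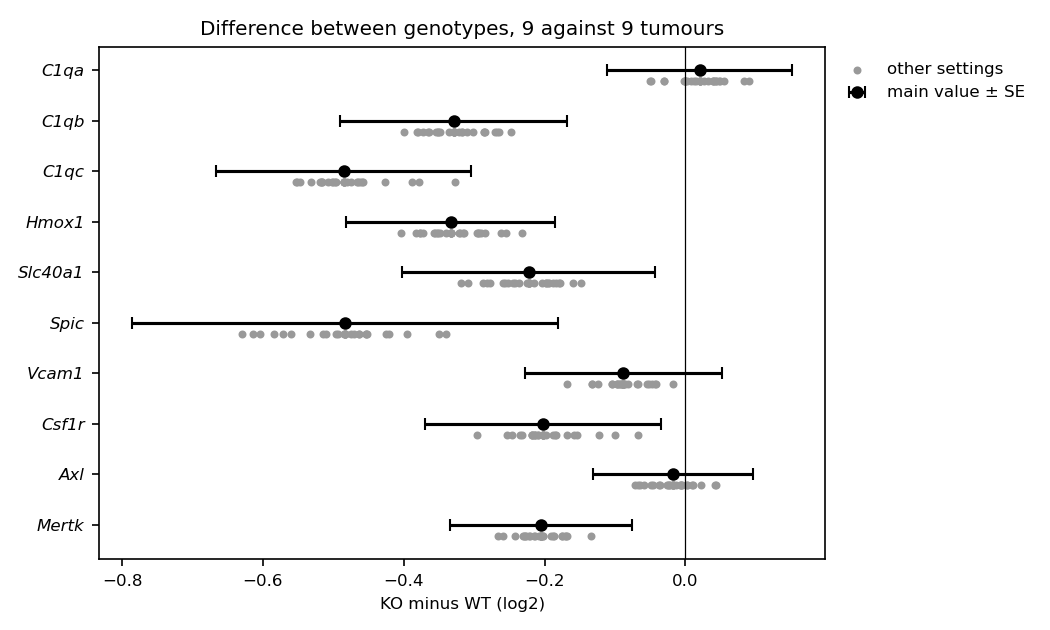
KO minus WT difference of each macrophage gene on the log2 scale (horizontal axis), with black points and bars for the reported value ± SE and grey points for the same difference under each other setting or with a tumour left out. The points lie below 0 under each setting for every gene except C1qa and Axl, whose points lie on both sides of it.

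The same few tumours held the extremes. WT tumour 1 was the highest WT tumour for 8 of the 10 genes, and KO tumour 6 the highest KO tumour for 7 of the 10. WT tumour 3 was the lowest WT tumour for 6, KO tumour 4 the lowest KO tumour for 4 and KO tumour 8 for 3. In WT tumours 1 and 4 and in KO tumour 6, all 10 genes lay above their median over the 18 tumours, whereas in WT tumour 9 and KO tumour 8 none did.

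Over the 18 tumours the levels of the 10 genes varied together, which is given as a description across points that share an array and its normalization. All 45 pairs correlated positively, 37 of them above 0.5, and the median Pearson's r was 0.67. Spearman's rho gave a median of 0.66, values centred within genotype 0.69, the tumours without WT tumour 3 0.67 and those without WT tumour 1 0.59. The median r of a member with any gene of the array was -0.06. The closest pairs were C1qc with Csf1r (0.90), C1qb with C1qc (0.88) and Slc40a1 with Spic (0.87). Axl followed the others least, with 0.08 for Spic and 0.27 for C1qb, and C1qa and Hmox1 reached 0.15.

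**Figure D3:**
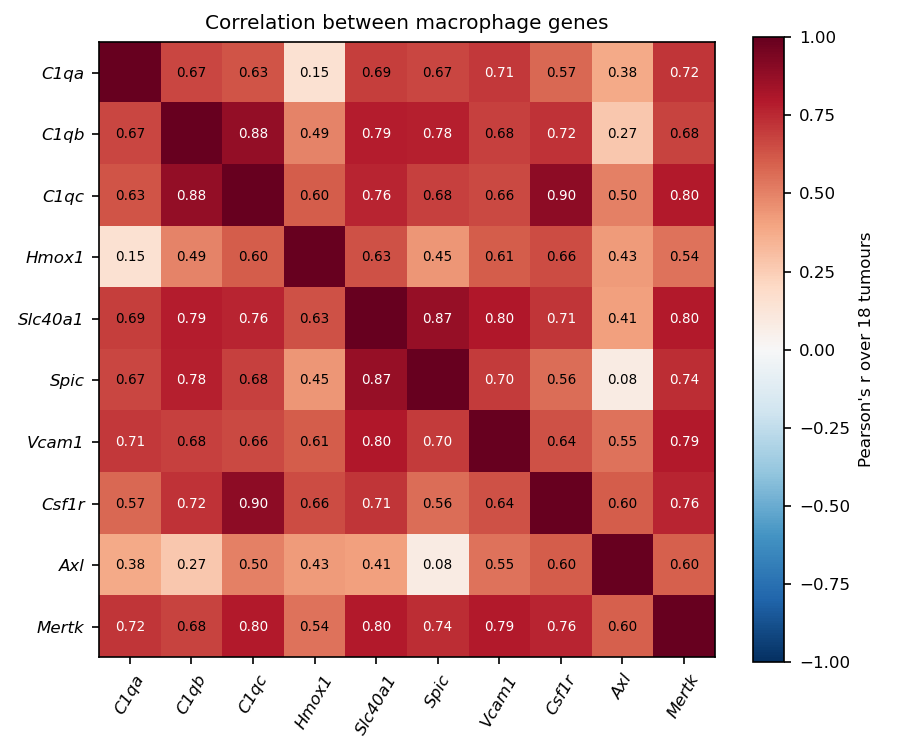
Pearson's r between each pair of macrophage genes over 18 tumours, from blue (-1) to red (1), with the value printed in each cell. All 45 pairs are above 0, and the row of Axl holds the lowest value, 0.08 with Spic.

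The genes of the whole array most like each member, by Pearson's r over 18 tumours, included members and other genes. C1qb was nearest to Fcer1g (0.92), the signalling chain of Fc receptors, Fcgr4 (0.89) and Aoah (0.89). C1qc was nearest to Acp5 (0.91), the tartrate-resistant acid phosphatase of macrophages and osteoclasts, then Csf1r (0.90) and Fcer1g (0.88). C1qa was nearest to the mannose receptor Mrc1 (0.85), Clec1b (0.78) and transferrin, Trf (0.77). Spic was nearest to Tyrobp (0.94), an adaptor of myeloid and NK receptors, then Hpgds (0.93) and Serpinb6b (0.92).

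For Slc40a1 the nearest were Gdpd2 (0.92), Gbp8 (0.91) and Id2 (0.88). Hmox1 was nearest to Flrt2 (0.89), Slc25a38 (0.80), a mitochondrial glycine carrier of haem synthesis, and Msi1 (0.77). Vcam1 was nearest to Slc40a1 (0.80), Mertk (0.79) and the integrin chain Itgad (0.76), itself a red pulp macrophage gene. Csf1r was nearest to C1qc (0.90), Jak2 (0.89) and Stk39 (0.89), Axl to Syne1 (0.85), Pbx3 (0.84) and 4930578G10Rik (0.82), and Mertk to Sema6d (0.81), Ifi207 (0.80) and C1qc (0.80).

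The relation to red cell genes was read against the mean log2 level of 18 measured erythroid genes, out of 27 listed: regulators such as Klf1 and Gata1, red cell membrane genes and haem genes. The globin genes have no probe set with a single symbol here and did not enter. The erythroid mean had its lowest, median and highest values at 6.78, 7.07 and 8.59 in WT tumours and at 6.05, 6.95 and 7.36 in KO tumours. WT tumour 1 was the highest and KO tumour 6 the lowest of the 18, which were also the tumours with the highest macrophage gene levels in their groups. The group means were 7.34 ± 0.60 and 6.81 ± 0.42 (SD, n = 9 each). All 18 erythroid genes had a lower mean in KO tumours, as 59.2% of all genes did. Of the 18, 11 were lower at an unadjusted p below 0.05, against 3.87% of all genes, and 0 were called by limma. Klf1, the regulator of adult globin genes, was 7.31 ± 0.62 in WT and 6.63 ± 0.26 in KO tumours (SD, n = 9 each; difference -0.68, SE 0.21, limma adjusted p = 0.665).

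All 10 macrophage genes correlated positively with the erythroid mean over the 18 tumours, against 48.5% of all genes, with a median r of 0.25 against -0.01. None was called: 0 of 10 had a permutation p adjusted over all genes below 0.05, where 285 genes (1.43%) did. That array-wide count was 156 by Spearman's rho and 454 with values centred within genotype. At an unadjusted p below 0.05, 1 of 10 was positive, against 5.3% of all genes. That gene was C1qc, with r = 0.53 (permutation p = 0.0259, adjusted p = 0.537) and rho = 0.37 (permutation p = 0.133, adjusted p = 0.824). Hmox1 followed with r = 0.46 (permutation p = 0.0545, adjusted p = 0.703) and rho = 0.34 (permutation p = 0.165), then Csf1r with r = 0.43 (permutation p = 0.0795, adjusted p = 0.781) and rho = 0.40 (permutation p = 0.0992). C1qb gave r = 0.38 (permutation p = 0.120) and rho = 0.30 (permutation p = 0.229). The other 6 lay between 0.05 for Spic and 0.27 for Mertk, with permutation p from 0.271 to 0.853 and adjusted p from 0.937 to 0.993. Their rho lay between 0.06 for Mertk and 0.21 for Slc40a1, with permutation p from 0.391 to 0.810.

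**Figure D4:**
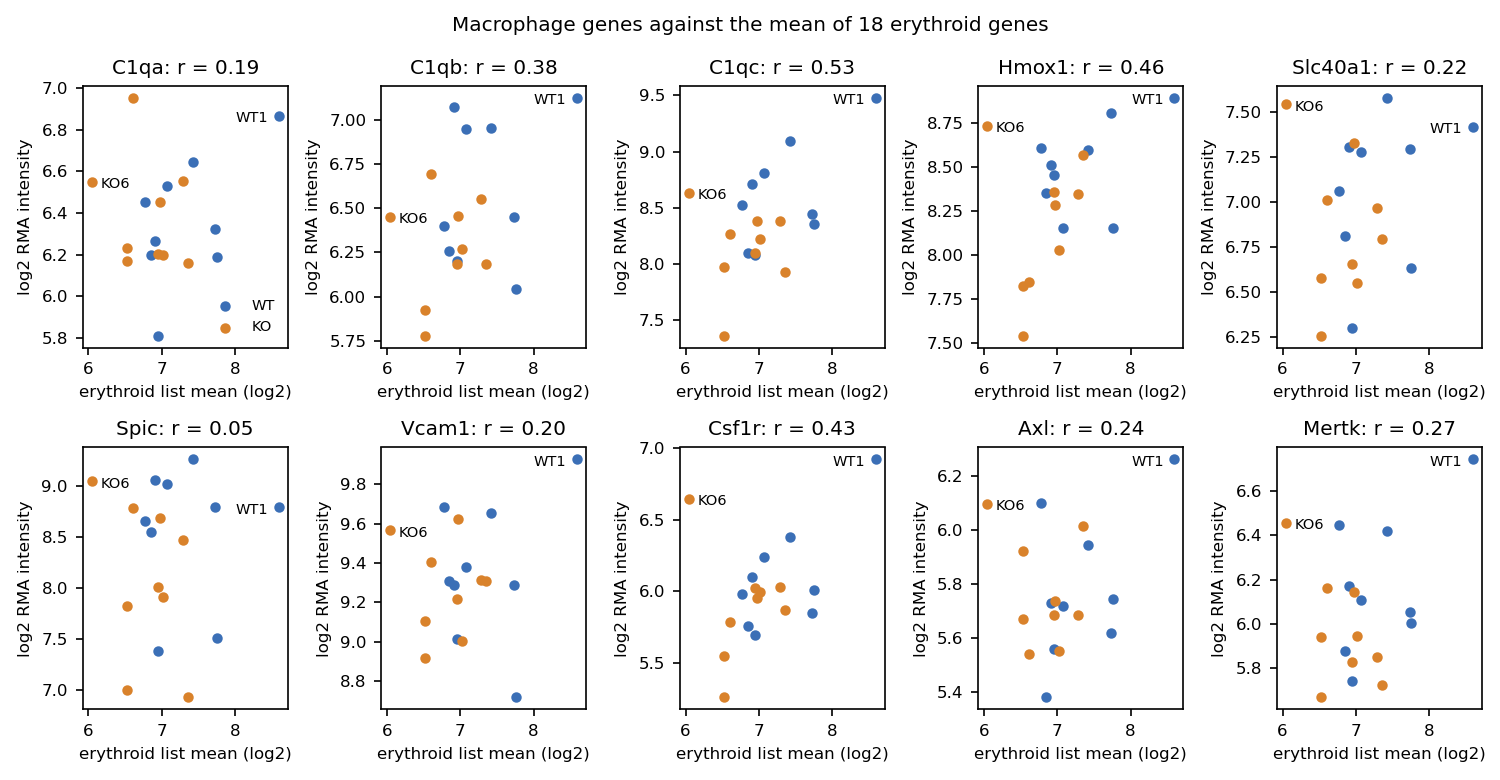
Log2 RMA intensity of each macrophage gene (vertical axes) against the mean log2 level of 18 erythroid genes (horizontal axes), with a point per tumour, WT in blue and KO in orange. WT tumour 1 stands at the right and KO tumour 6 at the left of each panel, at erythroid means of 8.59 and 6.05.

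The 2 tumours farthest from the median erythroid mean, WT tumour 1 and KO tumour 6, pulled these values in opposite directions. Without both, r was 0.60 for Hmox1 (permutation p = 0.0138, adjusted p = 0.481), 0.53 for Csf1r (permutation p = 0.0357, adjusted p = 0.664) and 0.43 for C1qc (permutation p = 0.0940), and 8 of 10 genes stayed positive. Of the 10, 2 then had an unadjusted p below 0.05 with a positive r, against 4.64% of all genes, and 0 were called, against 120 genes (0.602%). Without WT tumour 1 alone, 5 of 10 were positive and the median r was -0.02, with 0.30 for Hmox1, 0.24 for C1qc, 0.13 for C1qb, 0.06 for Slc40a1 and 0.04 for Csf1r. None of the 10 then had an unadjusted p below 0.05, against 3.34% of all genes with a positive r, and 0 were called, against 102 genes (0.512%). That all 10 were positive at once therefore depended on WT tumour 1, while 5 genes kept a positive r without it. Without KO tumour 6 alone, all 10 values were larger and the median r was 0.46, with 0.45 for Slc40a1. Csf1r then reached 0.76 (permutation p = 0.00105, adjusted p = 0.0598), Hmox1 0.68 (permutation p = 0.00264, adjusted p = 0.108) and C1qc 0.67 (permutation p = 0.00454, adjusted p = 0.148), so that 4 of 10 had an unadjusted p below 0.05 with a positive r, against 6.42% of all genes. None was called, against 320 genes (1.6%).

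**Figure D5:**
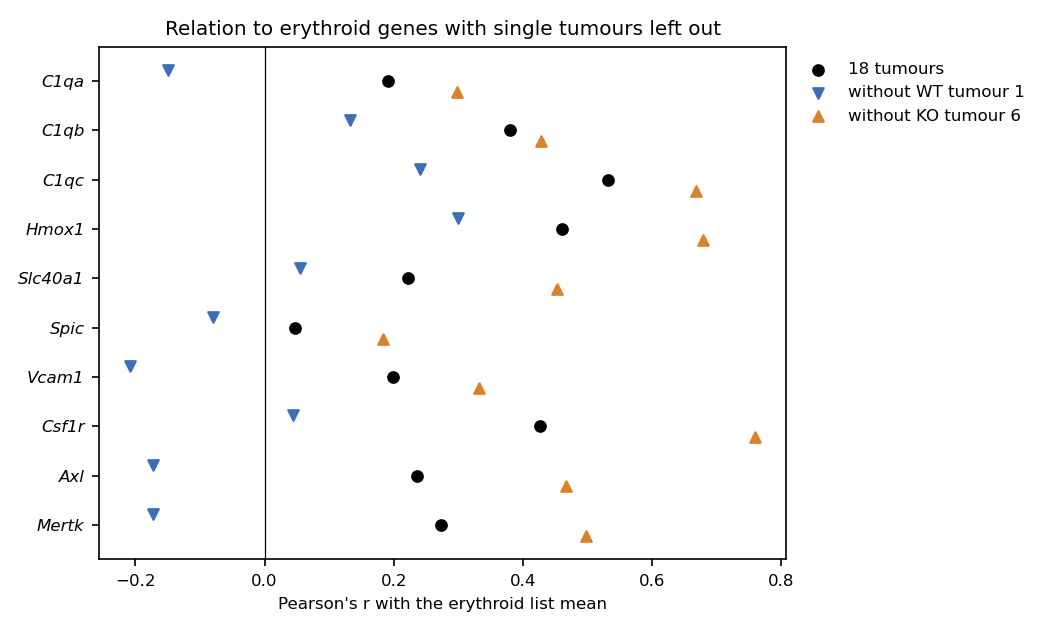
Pearson's r of each macrophage gene with the erythroid mean (horizontal axis) over 18 tumours (black), without WT tumour 1 (blue) and without KO tumour 6 (orange). The orange points lie to the right of the black ones for all 10 genes, and 5 blue points lie below 0.

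Within the 9 WT tumours all 10 genes correlated positively with the erythroid mean, with a median r of 0.50 against -0.06 over all genes. Within the 9 KO tumours 2 of 10 did, with a median of -0.18 against -0.02 over all genes. Because the 10 genes varied together, these counts are not 10 separate observations. Csf1r reached 0.70 in WT tumours (rho = 0.50; exact permutation p of r = 0.0389, adjusted p = 0.374) and -0.14 in KO tumours (rho = 0.18; exact permutation p of r = 0.738). C1qc gave 0.62 in WT (rho = 0.37; exact permutation p of r = 0.0748) and -0.07 in KO tumours (rho = -0.03; exact permutation p of r = 0.863). Mertk gave 0.53 in WT (rho = 0.15; exact permutation p of r = 0.144) and -0.61 in KO tumours (rho = -0.37; exact permutation p of r = 0.0840).

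The difference in slope between genotypes was tested itself, and 0 of 10 macrophage genes and 0 of 19938 genes (0%) were called by limma. At an unadjusted p below 0.05, 1 of 10 differed, against 5.1% of all genes. This was Mertk, whose slope on the erythroid mean was 0.27 (SE 0.16) in WT and -0.36 (SE 0.19) in KO tumours, a difference of -0.63 (SE 0.26, unadjusted p = 0.0230, limma adjusted p = 0.964). These values moved when the most extreme tumour of a group was left out. In the 8 WT tumours other than tumour 1, r was 0.18 for Csf1r (exact permutation p = 0.666), 0.16 for C1qc (exact permutation p = 0.692) and -0.02 for Mertk (exact permutation p = 0.972). The 8 KO tumours other than tumour 6 were a set chosen after its values were seen. There r was highest for Hmox1, at 0.90 (rho = 0.81, exact permutation p of r = 0.00246), and Csf1r, at 0.75 (rho = 0.69, exact permutation p of r = 0.0280). The other genes lay between -0.21 for Mertk (exact permutation p = 0.607) and 0.45 for C1qc (exact permutation p = 0.274). These p-values are not adjusted over genes.

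With the erythroid mean as a covariate, the genotype difference of C1qc was -0.33 (SE 0.20, unadjusted p = 0.113), that of Hmox1 -0.23 (SE 0.16, unadjusted p = 0.175), that of C1qb -0.25 (SE 0.18), that of Csf1r -0.07 (SE 0.18) and that of Axl 0.04 (SE 0.13), each above its value without the covariate. Spic moved the other way, from -0.48 to -0.58 (SE 0.35). The erythroid mean was itself lower on average in KO tumours, and its part in these differences was not tested beyond this fit.

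Most genes of the wider lists for the same cells had lower means in KO tumours, as 59.2% of all genes did, and 0 were called. Of 13 other red pulp macrophage genes, 12 were lower and 0 called, with a median difference of -0.17 against -0.03 over all genes. Among them Cd68, a lysosomal macrophage protein, differed by -0.36 (SE 0.19, limma adjusted p = 0.769), and Pparg by -0.24 (SE 0.12, limma adjusted p = 0.761). All 5 marginal zone macrophage genes were lower and 0 called (median -0.25), led by the lectin Cd209b at -0.45 (SE 0.19, unadjusted p = 0.0250, limma adjusted p = 0.699). Siglec1, the sialoadhesin of metallophilic macrophages, differed by -0.17 (SE 0.09). All 13 other red pulp genes correlated positively with the erythroid mean, with a median r of 0.30 and 0 called. The highest was Cd5l, a secreted protein of tissue macrophages, at r = 0.47 (adjusted permutation p = 0.695), which was -0.35 without WT tumour 1 and KO tumour 6. In the marginal zone list 3 of 5 were positive, with Siglec1 at 0.40 (adjusted permutation p = 0.812) and Marco at 0.35 (adjusted permutation p = 0.886).

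Of 11 measured genes of iron and haem recycling, 8 were lower and 0 called (median -0.14), and 10 of 11 correlated positively with the erythroid mean (median r 0.47). Blvrb, a biliverdin reductase that red cells also carry, differed by -0.56 (SE 0.21, unadjusted p = 0.0127, limma adjusted p = 0.699), and the haem transporter Slc48a1 by -0.26 (SE 0.10, unadjusted p = 0.0195, limma adjusted p = 0.699). Blvrb was the 1 gene of this list called for its relation to the erythroid mean, with r = 0.77 (adjusted permutation p = 0.0150) and rho = 0.71 (permutation p = 0.00156, adjusted p = 0.125). Without WT tumour 1 and KO tumour 6 its r was 0.66 (adjusted permutation p = 0.319). Slc48a1 gave r = 0.67 (permutation p = 0.00322, adjusted p = 0.153) and rho = 0.62 (permutation p = 0.00639). Of the red pulp list, Bmp2k gave 0.41 (adjusted permutation p = 0.788), and without KO tumour 6 it gave 0.78 (adjusted permutation p = 0.0184).

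Efferocytosis genes, which serve the uptake of dying cells with Axl and Mertk, split between directions, with 8 of 13 lower, 5 higher and 0 called (median -0.03). Over all genes 59.2% were lower and the median was -0.03. The integrin chain Itgav was higher by 0.39 (SE 0.14, unadjusted p = 0.0133, limma adjusted p = 0.699) and Elmo1, which links engulfment receptors to the cytoskeleton, by 0.37 (SE 0.14, limma adjusted p = 0.699). Of 10 measured genes of classical complement and its receptors, 8 were lower and 0 called (median -0.17). C1ra, the protease partner of C1q, differed by -0.24 (SE 0.11, unadjusted p = 0.0400, limma adjusted p = 0.728), and the anaphylatoxin receptor C5ar1 by -0.19 (SE 0.12, limma adjusted p = 0.804). In the CSF1 axis and lineage factors, 7 of 8 were lower and 0 called (median -0.12), with Cebpa at -0.26 (SE 0.12, limma adjusted p = 0.729), Irf8 at -0.24 (SE 0.16, limma adjusted p = 0.809) and Csf1, the ligand of CSF1R, at 0.11 (SE 0.14, limma adjusted p = 0.892). In these 3 lists 0 genes were called for the relation to the erythroid mean. In the same order, r was positive for 8 of 13, 6 of 10 and 1 of 8 genes (median r 0.11, 0.02 and -0.10). It lay farthest from 0 for Gas6 (0.30) and Itgav (-0.29), Cd93 (0.29) and C1s1 (-0.18), and Csf1 (-0.23) and Irf8 (-0.22), respectively.

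Markers of other cells were set beside the macrophage genes in 90 further correlations of 10 genes with 9 list means, a step added after the data were seen. Where a list mean fell into separate clusters, the larger cluster alone was used. Of the 90, 3 passed the adjusted threshold. None of the 10 did so with the neutrophil mean, where 0.466% of genes were called, or the megakaryocyte mean, where 0.0201% were. With the pan-B, T cell and dendritic means (14 tumours each) and the stromal mean (15 tumours), 0 of 10 passed, as did 0 of 19938 genes (0%). The tumours left out of these 4 tests had the highest list means. They were WT tumours 4, 5 and 8 and KO tumour 6 for the T cell and dendritic means. For the stromal mean they were WT tumours 4 and 5 and KO tumour 6. A relation over all 18 tumours was therefore not tested for these lists. Spic correlated with the monocyte mean at r = 0.85 in 16 tumours (permutation p = 4e-05, adjusted p = 0.00831; rho = 0.75, adjusted p = 0.0584), where 9.83% of genes were called. Without its 2 farthest tumours r was 0.83 (adjusted permutation p = 0.0682). With the NK mean over 18 tumours, Spic gave r = 0.71 (permutation p = 0.00142, adjusted p = 0.0380; rho = 0.78, adjusted p = 0.0138) and Slc40a1 r = 0.69 (permutation p = 0.00145, adjusted p = 0.0383; rho = 0.67, adjusted p = 0.0556), where 4.53% of genes were called. Without the 2 farthest tumours these were 0.65 (adjusted permutation p = 0.123) and 0.52 (adjusted permutation p = 0.255).

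Csf1r and Hmox1 followed the endothelial mean at r = 0.74 (permutation p = 0.00033, adjusted p = 0.0682; rho = 0.65) and r = 0.73 (permutation p = 0.00056, adjusted p = 0.0741; rho = 0.76), where 0 genes (0%) were called. Without the 2 farthest tumours Csf1r gave 0.80 (adjusted permutation p = 0.0490) and Hmox1 0.73 (adjusted permutation p = 0.119). That Csf1r value was the 1 of the 90 past the threshold without the 2 farthest tumours. The shares of all genes called by rho or without the 2 farthest tumours were not counted for these list means. In level, the monocyte mean ran from 5.54 to 7.28 in WT and from 5.49 to 6.58 in KO tumours with 9 of 9 genes lower (median -0.23), the NK mean from 4.33 to 7.08 and from 4.67 to 6.72 with 7 of 8 lower (median -0.17), and the endothelial mean from 5.13 to 5.45 and from 5.04 to 5.54 with 7 of 9 lower (median -0.04), none of them called. Of the monocyte genes, Cd14 differed by -0.36 (SE 0.20, limma adjusted p = 0.777). With the erythroid mean 3 of 9 monocyte genes correlated positively (median r -0.10), with Fn1 and Ccr2 at 0.45 and -0.29 (adjusted permutation p = 0.736 and 0.922). All 13 neutrophil genes were lower in KO tumours (median -0.32, mean level from 6.14 to 8.70 in WT and from 6.05 to 7.96 in KO tumours). Of the T cell genes 9 of 10 were lower (median -0.13, from 5.44 to 7.17 and from 5.49 to 7.34), of the dendritic genes 8 of 9 (median -0.18, from 5.51 to 6.45 and from 5.39 to 6.53) and of the stromal genes 8 of 10 (median -0.15, from 5.55 to 6.32 and from 5.27 to 6.37). Pan-B genes ran the other way, with 8 of 13 higher (median 0.19, from 6.73 to 8.09 and from 6.85 to 8.26), where 8139 of 19938 genes were. Of the 13, 6 were higher at an unadjusted limma p below 0.05, against 2.83% of all genes. Of the megakaryocyte genes 3 of 5 were higher (median 0.06, from 6.93 to 8.13 and from 7.17 to 8.04). None of these genes was called between genotypes. The part of these cells in the macrophage gene levels was not tested.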

How the data were processed

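The authors deposited linear intensities per probe set, and the submitters' processing notes name RMA as the tool. No version of RMA and no genome build is stated in the sources used here. The values ran from 1.63 to 14996. Intensities as deposited were taken to log2 with no pseudocount. Of 35556 probe sets, 21789 carried 1 gene symbol in the platform annotation, 1621 several and 12146 none. Where a gene had several probe sets, the brightest on average was taken, which gave 19938 genes, 999 of them with more than 1 probe set. Each of the 10 macrophage genes had 1. Of 153 pairs of arrays 0 held identical values, so each array counted as 1 replicate. The number of arrays limits the precision.

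WT and KO tumours were compared with limma 3.58.1 (lmFit, eBayes) in R 4.3.3 over all genes, with no covariate and Benjamini-Hochberg adjustment. Correlations with the erythroid mean were computed for every gene in Python 3.11.15 with numpy 2.4.6 and pandas 2.3.3. Two-sided permutation tests used 100000 resamples, adjusted over all genes, and exact enumeration within genotype. Slope differences came from limma with genotype, the erythroid mean centred within genotype and their product. Slopes within WT and within KO tumours came from separate limma fits of each group. A slope given with genotype, or with genotype and the pan-B mean, came from limma without the product. Figures were drawn with matplotlib 3.10.9. Unadjusted p-values are given where a sentence says so.

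The limma and permutation steps were also run on simulated data. Of simulated 1.5-fold changes limma called 99 of 150 (66%), and of 2-fold changes 136 of 150 (90.7%). Many genes were changed at once in each simulation, with noise independent between genes. That makes the adjusted threshold easier to reach than in the tumours, where 1 gene was called. The rates therefore do not give the chance of a call for a macrophage gene. Smaller changes, such as the 1.40-fold difference of C1qc, were not simulated. Of genes simulated with a true r of 0.4, 45.3% had an unadjusted permutation p below 0.05.

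The members and gene lists were chosen with earlier results of these data known. All 10 members are named. Each list contributed the genes called, otherwise the 2 with the smallest p, and the 2 with the largest r with the erythroid mean, and lists of cells other than macrophages are given by their counts and levels. Each member contributed its 3 most similar genes, and Klf1 was named whatever its values. Alternatives covered the probe set rule, quantile or median scaling, leaving out dim genes, a replicate block, array weights, each tumour left out, an intensity trend in eBayes, covariates and parts of the erythroid list. Array batches are not stated in the labels. The labels do not say whether the replicate numbers of the titles pair tumours, and the main comparison was unpaired. Of 9 same-numbered pairs, 4 had correlated deviations above 0.1 (range -0.23 to 0.49). For 1 WT tumour the most similar KO tumour bore its own number. Whether some numbers mark pairs is not known.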

Additional observations from a re-analysis of the deposited data

Results flagged for a closer look

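Within each genotype, the highest and lowest tumour of each named gene and list mean was compared with its neighbour, and a gap that was large for the group's whole range (Dixon's ratio) set it apart. Of 180 groups tested 15 were set apart, and chance gives about 1 in 20. Among the macrophage genes this was C1qa in KO tumour 9, at 6.95 against 6.55 for the next.

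KO tumour 6 stood above the other KO tumours in 6 list means: efferocytosis genes at 6.46 (next 6.12), classical complement and receptor genes at 5.72 (next 5.31), CSF1 axis and lineage factors at 6.21 (next 5.95), T cell genes at 7.34 (next 6.19), dendritic cell genes at 6.53 (next 5.77) and stromal genes at 6.37 (next 5.68). It was also highest for Ccl19, a chemokine of stromal cells of the T cell zone, at 9.58 (next 7.81).

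WT tumour 8 was highest for Irf8 at 7.17 (next 6.69), Siglech, a marker of plasmacytoid dendritic cells, at 8.12 (next 6.61) and Flt3 at 7.77 (next 5.96). Madcam1 was highest in WT tumour 3 at 5.83 (next 5.14), Ly6g in KO tumour 9 at 5.93 (next 4.89) and Lum in KO tumour 8 at 3.63 (next 3.27). Ralgps2, a B cell gene, was lowest in WT tumour 1 at 7.02 (next 8.59).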

How the results depend on the processing

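Of the 10 macrophage genes, 0 were called between genotypes, for the relation to the erythroid mean or for a slope difference under any setting run. The count of genes called over the whole array was 1. It became 0 with the replicate block and 0 without the arrays of lowest correlation (WT tumour 3 and KO tumour 4, chosen after seeing the data). With each tumour left out it ran from 0 to 1. By exact permutation it was 0, but that test could not call 1 gene alone. Its smallest possible p is limited by the number of ways to divide the tumours into the groups. Adjusted over all genes, that p passes only where many genes reach it together. The exact permutation count therefore decides nothing about the 1 call or about the members. Of 290 member differences under other settings 275 kept their sign and side of the threshold, and of 300 member correlations 285 did. The replicate block changed no member's call. The C1qa difference reversed to -0.030 with array weights, to -0.030 without those 2 arrays and ran from -0.050 to 0.083 with tumours left out. The Axl difference became 0.0021 with median centring and 0.044 with the erythroid covariate and ran from -0.068 to 0.042. With tumours left out, r with the erythroid mean ran from -0.15 to 0.36 for C1qa, from -0.081 to 0.18 for Spic, from -0.21 to 0.42 for Vcam1, from -0.17 to 0.47 for Axl and from -0.17 to 0.50 for Mertk. Spic was -0.012 with erythroid regulators, -0.016 with red cell membrane genes, -0.022 with quantile normalization and -0.14 centred within genotype, and its limma slope was -0.19 with genotype and -0.19 with genotype and the pan-B mean. Without the 2 farthest tumours r was -0.046 for C1qa, -0.073 for Vcam1, -0.35 for Cd5l, 0.15 for C1s1, 0.50 for Cd22, 0.44 for Ralgps2 and 0.058 for Klrd1. By rho it was -0.022 for Cd5l, 0.024 for C1s1, 0.10 for Cd22 and 0.11 for Ralgps2. With tumours left out it ran from -0.30 to 0.15 for C1s1, from -0.45 to 0.083 for Cd22, from -0.37 to 0.19 for Ralgps2, from -0.31 to 0.11 for Dcn and from -0.016 to 0.27 for Itga2b. The cause of these reversals was not tested. The number of arrays and the RMA values, which give no detection call, limit what small differences can show.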
